A study of Mus musculus with 12 samples.

Results

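Protein phosphatase 2A (PP2A) was followed through 10 of its subunit genes in the hippocampus of lupus-prone and control mice. The genes were taken by name from the array annotation: the catalytic subunits *Ppp2ca* and *Ppp2cb*, the scaffold subunit *Ppp2r1a*, the B55 regulatory subunits *Ppp2r2a*, *Ppp2r2b* and *Ppp2r2c*, and the B56 regulatory subunits *Ppp2r5a*, *Ppp2r5b*, *Ppp2r5c* and *Ppp2r5d*. All 10 were on the array, where they had 16 probes among the 39429 probes of 29608 genes. The hippocampi of 12 female mice of about 12 weeks were profiled one by one, 4 mice in each of 3 phenotypes. MRL/lpr mice carry the lpr mutation of the death receptor gene *Fas* and develop lupus-like autoimmunity. Fn14ko mice have the same MRL/lpr background and in addition lack *Tnfrsf12a* (Fn14), the receptor of the cytokine TWEAK, after 8 generations of backcrossing. MRL/MpJ mice, the MRL/+ controls of the study, have the MRL background without the lpr mutation. The MRL/lpr and Fn14ko mice were littermates bred in the same colony, whereas the controls were purchased, so source and phenotype of the controls cannot be told apart.

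PP2A is one of the main serine/threonine phosphatases of the cell and is abundant in brain. A catalytic subunit binds the scaffold, and the pair takes up 1 of many regulatory subunits, which direct the enzyme to its substrates. Akt, tau and proteins of the synapse are among the known substrates.

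Each array carried 2 mice of the same phenotype, 1 labelled with Cy3 and 1 with Cy5, and the 2 arrays of a phenotype shared a slide and a scan. The slide cannot be told apart from the phenotype. The array with MRL/lpr replicates 3 and 4 was weak: its foreground was 1.73 and 1.93 times the background at the median spot, against 4.42 to 12.6 times in the other 10 mice. Between 19.6% and 25.2% of its spots were well above background, against 29.6% to 68.1%. The Cy5 mice of the MRL/MpJ group, replicates 2 and 4, had negative-control spots at 208 and 211 intensity units, against 33.2 to 90.6 in the other 10 mice. The level of *Tnfrsf12a* was 0.151 to 0.189 in the 4 Fn14ko mice, below the 8 other mice (0.241 to 0.629). Its probe was nevertheless well above background in all 4 of them, and whether the probe lies in the deleted part is not given in the sources used here. The labels name hippocampus as the source of the RNA but also mention cortex. Of 10 genes that mark hippocampal cell groups, *Wfs1* and *Zbtb20* were well above background in all 12 mice, whereas *Tdo2* was so in only 2.

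A level is the background-subtracted intensity of a gene divided by the median of its own channel over the 10877 spots that were valid in all 12 mice, so a level of 1 equals that median. A probe reports its own brightness, and levels are compared here between mice and never between genes. In 8 of the 10 subunits at least 1 probe was valid in all mice. *Ppp2r1a* and *Ppp2r5a* were not valid in at least 1 mouse of the weak array, and their values come from a fit that kept all spots, called the fit with no filter. Because the weak array holds 2 of the 4 MRL/lpr mice, every comparison is also given for the other 10 mice, over all 17936 genes valid in those.

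The sequences of 5 probes show what the results on the catalytic subunits, the scaffold and *Ppp2r5d* rest on, each read 5′ to 3′ from the array files with mm9 positions. The *Ppp2r1a* probe spanned chr17:21098695-21099588 on the plus strand, that is, 60 bases of transcript over 894 bases of genome and thus across an intron. *Ppp2r5d* probe 2 lay at chr17:46820992-46821051 on the minus strand. Both had at least 1 reading frame with no stop codon. *Ppp2ca* was read at chr11:51935900-51935959 (probe 1) and, 5322 bases further downstream, at chr11:51941222-51941280 (probe 2), both on the plus strand. *Ppp2cb* was read at chr8:34730207-34730266 on the plus strand. None of these 3 catalytic probes had a frame free of stop codons, and of each a stretch of 30 bases is given. Capitals mark AATAAA, the hexamer of the canonical polyadenylation signal, searched on the given strand and found in 12.6% of all 39429 probes.
Ppp2r1a: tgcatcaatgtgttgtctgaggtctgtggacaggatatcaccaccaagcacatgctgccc
Ppp2r5d probe 2: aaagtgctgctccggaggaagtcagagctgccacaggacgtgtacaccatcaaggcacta
Ppp2ca probe 1: ccctcttgttgtgtttctttcagggatacc
Ppp2ca probe 2: tatactgtactcAATAAActgtaaacaaat
Ppp2cb: gtgtactgaacaAATAAAatttccgattta
The longest run of bases that any of the 16 probes shared with a probe of another subunit was 9, so the probes of *Ppp2ca* and *Ppp2cb* read different sequences.

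The scaffold *Ppp2r1a*, on which the other subunits assemble, separated the controls from the other mice. Its level was 6.603, 8.34, 7.12 and 6.71 in MRL/MpJ replicates 1 to 4. It was 3.67, 3.69, 4.34 and 3.02 in the Fn14ko mice, and 4.07, 3.23, 0.352 and 0.377 in the MRL/lpr mice. Every control was thus above every other mouse, the first 2 MRL/lpr mice lay within the Fn14ko range, and the 2 mice of the weak array lay far below, where the probe was not well above background. Across all 12 mice the log2 fold change of MRL/lpr against MRL/MpJ was −2.64 ± 0.67 (SE, adjusted p = 0.0564). That of Fn14ko against MRL/MpJ was −0.97 ± 0.67 (adjusted p = 0.425). Both contrasts gave an exact two-sided permutation p of 0.0286, the smallest that 4 against 4 mice can give. The permutation treats mice as independent, although 2 shared each array.

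In the 10 other mice, *Ppp2r1a* was lower than in MRL/MpJ in both lpr-bearing phenotypes. The log2 fold change was −0.82 ± 0.15 in MRL/lpr (SE, 2 mice, 95% interval −1.16 to −0.48, adjusted p = 0.00622) and −0.72 ± 0.13 in Fn14ko (4 mice, −0.999 to −0.44, adjusted p = 0.00535). These correspond to 0.567 and 0.606 times the control level. MRL/lpr and Fn14ko differed by −0.10, with an interval of −0.44 to 0.24. The same held in the Cy3 mice, which had ordinary negative-control signal: on the scale of the 10-mouse fit the 2 Cy3 controls were at 25.4 and 28.1, the Fn14ko ones at 14.6 and 17.7 and MRL/lpr replicate 1 at 15.3. The direction against MRL/MpJ was the same under all 31 alternative settings in both contrasts, and the call was made under 13 and 8 of them.

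Sums of marker genes of other cell groups are given beside *Ppp2r1a*. The summed level of 6 neuronal genes, all well above background in every mouse, was 52.2 to 64.1 in MRL/MpJ, 35.3 to 49.1 in Fn14ko and 26.6 to 55.8 in MRL/lpr, so the controls overlapped with MRL/lpr but not with Fn14ko. The summed level of 5 genes of cerebral cortex layers was 5.67 to 8.26 in MRL/MpJ, 2.73 to 4.68 in Fn14ko and 1.29 to 2.97 in MRL/lpr, and all 5 were well above background in the 10 mice outside the weak array. As for *Ppp2r1a*, every control was above every other mouse in this sum. In the 10-mouse fit, 1 of the 6 neuronal genes was lower in MRL/lpr than in MRL/MpJ and 1 in Fn14ko. Of the 5 cortical genes, 4 and 2 were lower. The part of these markers in the *Ppp2r1a* result was not tested. In bulk tissue, fewer cells of a type and less RNA per cell cannot be told apart.

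**Figure D1:**
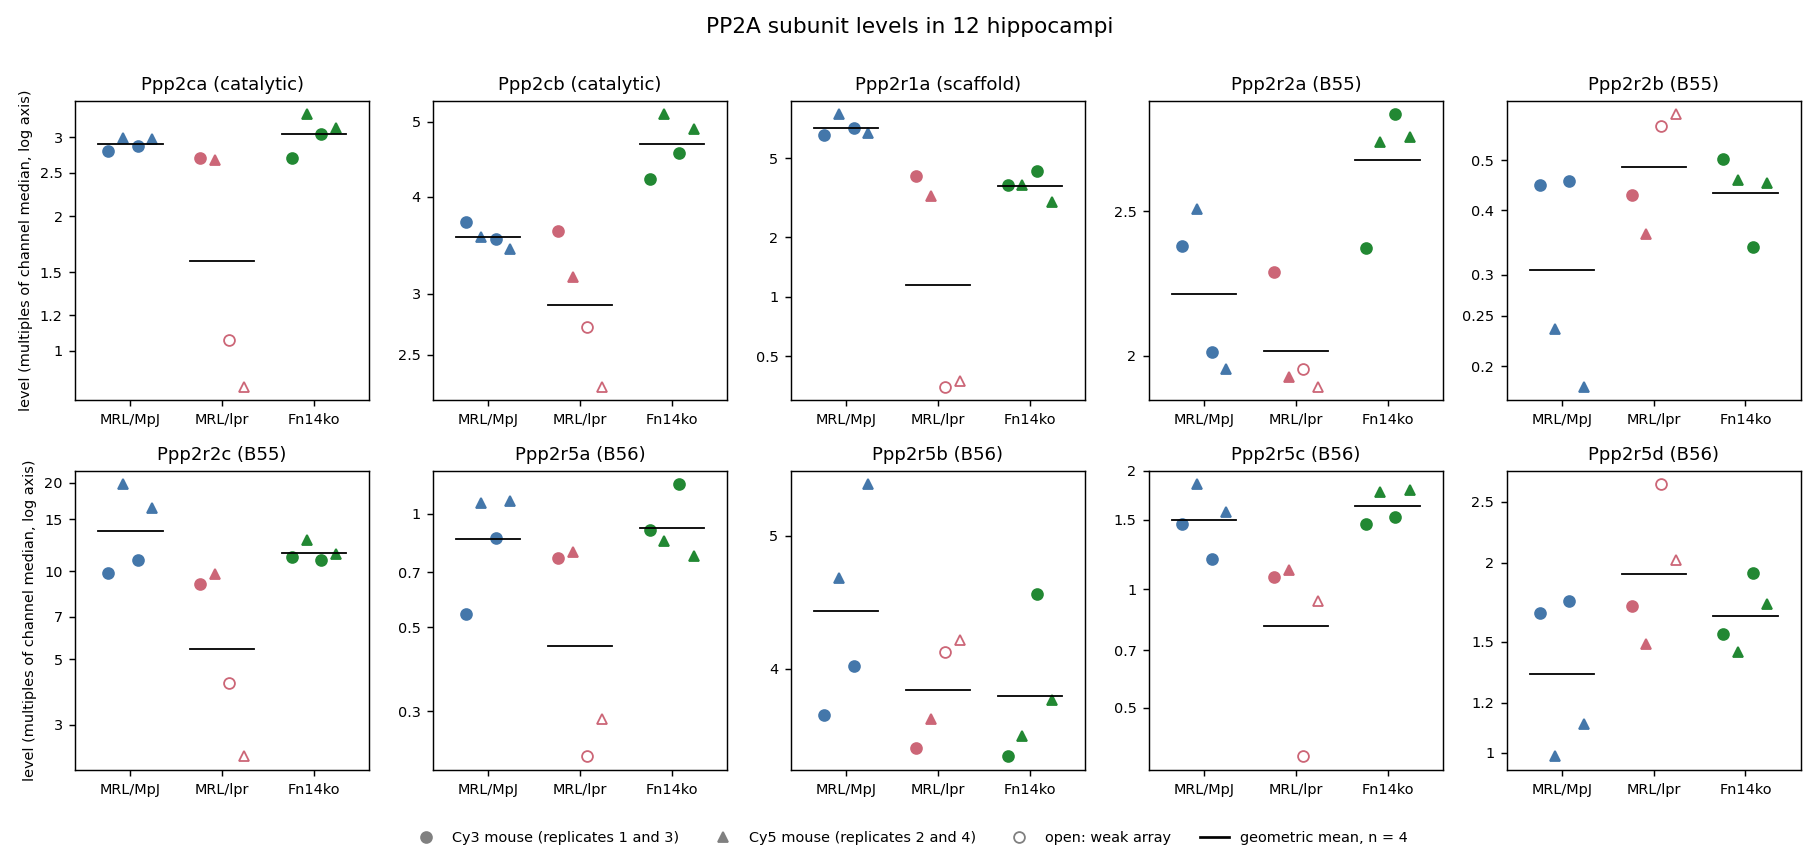
Levels of the 10 PP2A subunits in each mouse, as multiples of the channel median on a log axis, by phenotype (4 mice each). Circles are Cy3 mice, triangles Cy5 mice, open symbols the 2 MRL/lpr mice of the weak array, and bars the geometric mean. The controls lie above all other mice for *Ppp2r1a* (6.603 to 8.34), and the open symbols lie far below the other MRL/lpr mice for *Ppp2ca*, *Ppp2r1a*, *Ppp2r2c* and *Ppp2r5a*.

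The catalytic subunit *Ppp2ca*, the main source of the enzyme's active site in most tissues, was at 2.79, 2.99, 2.87 and 2.98 in MRL/MpJ and at 2.70, 3.37, 3.04 and 3.15 in Fn14ko. In MRL/lpr it was 2.69, 2.67, 1.06 and 0.832. All 4 MRL/lpr mice were thus below the mice of both other phenotypes, but replicates 1 and 2 by little and only replicates 3 and 4, on the weak array, by much. The log2 fold change was −0.87 ± 0.36 against MRL/MpJ (SE, adjusted p = 0.112) and −0.95 ± 0.36 against Fn14ko (adjusted p = 0.108). This direction is opposite to the one the study gives for *Ppp2ca* in MRL/lpr. Leaving out the weak array, these were 0.05 (95% interval −0.34 to 0.43) and −0.28 (−0.66 to 0.11). Fn14ko and MRL/MpJ differed by 0.07 in the 12 mice and by 0.32 in the 10 (adjusted p = 0.955 and 0.121).

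The 2 probes of *Ppp2ca* differed in how they responded to the weak array. Probe 1 read 4.92, 4.75, 1.52 and 1.16 in the MRL/lpr mice, so the weak array stood apart. Probe 2, which holds the polyadenylation hexamer and is dimmer, read 0.464, 0.591, 0.590 and 0.501 in the same mice, so it did not. This probe was well above background in only 3 of those 4 mice. It was 0.472 to 1.19 in Fn14ko and 0.625 to 0.961 in MRL/MpJ. Across all 12 mice neither probe passed the test between MRL/lpr and MRL/MpJ, with log2 fold changes of −0.98 and −0.54.

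*Ppp2cb*, the second catalytic isoform, was highest in the Fn14ko mice. Its level was 4.22, 5.11, 4.56 and 4.89 there, against 3.71, 3.55, 3.53 and 3.42 in MRL/MpJ and 3.61, 3.15, 2.72 and 2.27 in MRL/lpr. The Fn14ko mice did not overlap with either other phenotype. Across all 12 mice, the log2 fold change of Fn14ko against MRL/MpJ was 0.40 ± 0.21 (SE, adjusted p = 0.414, exact permutation p = 0.0286). That of MRL/lpr against Fn14ko was −0.69 ± 0.21 (adjusted p = 0.0749). *Ppp2cb* in the 10 other mice was higher in Fn14ko than in MRL/MpJ, by 0.65 ± 0.15 (95% interval 0.32 to 0.98, adjusted p = 0.0157). The size depended on the spots used for scaling, which alone moved this contrast by 0.25: over the spots valid in all 12 mice, the same 10 mice gave 0.40 (adjusted p = 0.0420). On the scale of the 10-mouse fit the Cy3 controls were at 14.3 and 13.9 and the Cy3 Fn14ko mice at 16.8 and 18.6. The Cy5 controls, the mice with raised negative-control signal, were at 9.67 and 10.6, and the Cy5 Fn14ko mice at 20.3 and 19.6. The part of that signal in the difference was not tested. MRL/lpr did not pass the test against either phenotype (0.09 against MRL/MpJ, adjusted p = 0.760, and −0.56 against Fn14ko, adjusted p = 0.0880).

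Ratios within a mouse are free of the channel's scaling. The ratio of *Ppp2cb* to *Ppp2ca* was 1.15 to 1.33 in the 4 controls and 1.498 to 1.56 in the 4 Fn14ko mice, whereas it spanned 1.18 to 2.73 in MRL/lpr. The ratio of *Ppp2r1a* to *Ppp2ca* was 2.25 to 2.79 in the controls, 0.959 to 1.43 in Fn14ko and 0.333 to 1.51 in MRL/lpr. In MRL/lpr replicates 3 and 4, where the *Ppp2r1a* probe was not well above background, it was 0.333 and 0.453, and in replicates 1 and 2 it was 1.51 and 1.21. The absolute size of such a ratio reflects 2 probes of different brightness, and only its change between mice can be read. Both ratios thus separated the Fn14ko from the control mice, and the scaffold ratio also separated MRL/lpr from the controls. The ratio of *Ppp2r1a* to *Ppp2cb* was 0.617 to 0.952 in Fn14ko and 1.78 to 2.35 in the controls. This separation was set by the levels, since every Fn14ko mouse was lower in *Ppp2r1a* and higher in *Ppp2cb* than every control. The ratio of *Ppp2r5d* to *Ppp2r5b* overlapped (0.220 to 0.243 and 0.135 to 0.268), as did that of *Ppp2r2c* to *Ppp2r2a* (3.75 to 4.71 and 4.16 to 8.38). Among single genes, 19.9% did not overlap between Fn14ko and MRL/MpJ. The share among ratios was not counted.

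**Figure D2:**
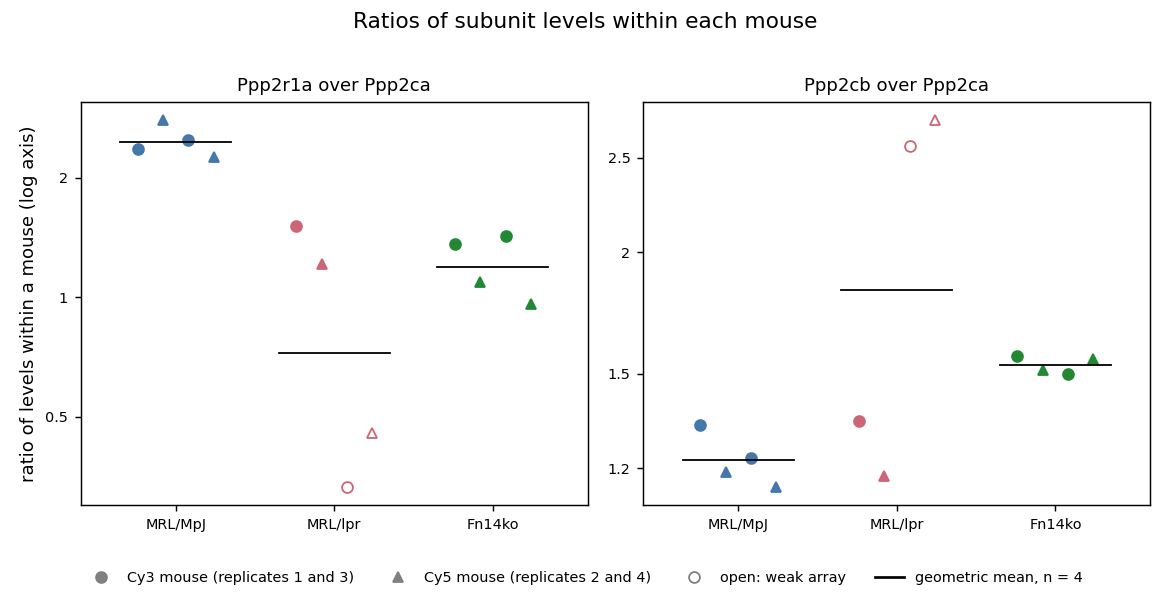
Ratio of *Ppp2r1a* to *Ppp2ca* (left) and of *Ppp2cb* to *Ppp2ca* (right) within each mouse, on a log axis, by phenotype (symbols as for the levels). The scaffold ratio is 2.25 to 2.79 in the controls and at most 1.51 in every other mouse; the catalytic ratio is 1.498 to 1.56 in Fn14ko and at most 1.33 in the controls.

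Among the B55 regulatory subunits, *Ppp2r2a*, a broadly expressed form, showed the narrowest range. It was 2.37, 2.51, 2.01 and 1.96 in MRL/MpJ, 2.36, 2.78, 2.90 and 2.80 in Fn14ko, and 2.28, 1.93, 1.96 and 1.91 in MRL/lpr. The MRL/lpr mice all lay below the Fn14ko mice (log2 fold change −0.43 ± 0.19, SE, adjusted p = 0.137). In the 10-mouse fit *Ppp2r2a* was higher in Fn14ko than in MRL/MpJ, by 0.55 ± 0.15 (adjusted p = 0.0267). This call was lost over the spots valid in all 12 mice, where the difference was 0.30, under quantile normalization and with a replicate block (adjusted p = 0.0649). On the scale of the 10-mouse fit the Cy3 controls were at 9.11 and 7.94 and the Cy5 controls, with raised negative-control signal, at 6.83 and 6.08. The Fn14ko mice were at 9.38 to 11.8 there. The part of that signal in the difference was not tested.

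*Ppp2r2c*, a brain-enriched B55 form, was at 9.87, 19.8, 10.9 and 16.4 in MRL/MpJ, so that the 2 Cy5 controls stood far above the 2 Cy3 ones. It was 11.1, 12.7, 10.9 and 11.5 in Fn14ko and 9.06, 9.79, 4.16 and 2.34 in MRL/lpr, which lay below both other phenotypes. The log2 fold change was −1.34 ± 0.43 against MRL/MpJ (SE, adjusted p = 0.0686) and −1.09 ± 0.43 against Fn14ko (adjusted p = 0.114). Without the weak array it was −0.37 (95% interval −0.69 to −0.06, adjusted p = 0.0978) and −0.38 (−0.70 to −0.07, adjusted p = 0.134).

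*Ppp2r2b*, the neuronal B55 form that is expanded in a spinocerebellar ataxia, was read by 2 probes that gave different pictures. Probe 1 was at 4.57, 5.80, 4.87 and 4.69 in MRL/MpJ and at 4.73, 4.87, 3.07 and 4.76 in Fn14ko. It was at 2.83, 2.19, 0.523 and 0.402 in MRL/lpr, below all 8 other mice. Probe 2, dimmer, was at 0.447, 0.236, 0.456 and 0.182 in MRL/MpJ, 0.502, 0.458, 0.339 and 0.451 in Fn14ko, and 0.429, 0.360, 0.581 and 0.613 in MRL/lpr. Its 2 low values were the Cy5 controls, and it was well above background in only 2 of the 4 controls.

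Only probe 2 was valid in all 12 mice, and on it *Ppp2r2b* had a log2 fold change of 0.66 ± 0.32 (SE) for MRL/lpr against MRL/MpJ (adjusted p = 0.157). With no filter, where both probes enter, it was −1.60 against MRL/MpJ (adjusted p = 0.0347) and −1.43 against Fn14ko (adjusted p = 0.0328). Over the 10 mice it was −0.72 ± 0.22 (adjusted p = 0.0522) and −0.80 ± 0.22 (adjusted p = 0.0490). The latter call was lost under quantile normalization (adjusted p = 0.102), with a replicate block (adjusted p = 0.112) and over the spots valid in all 12 mice, where only probe 2 entered (−0.14, adjusted p = 0.857). Tested on its own in the 10 mice, probe 1 was lower in MRL/lpr, with log2 fold changes of −0.83 against MRL/MpJ (adjusted p = 0.0283) and −0.87 against Fn14ko (adjusted p = 0.0360). Probe 2 did not pass (0.52 and −0.23, adjusted p = 0.333 and 0.808).

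**Figure D3:**
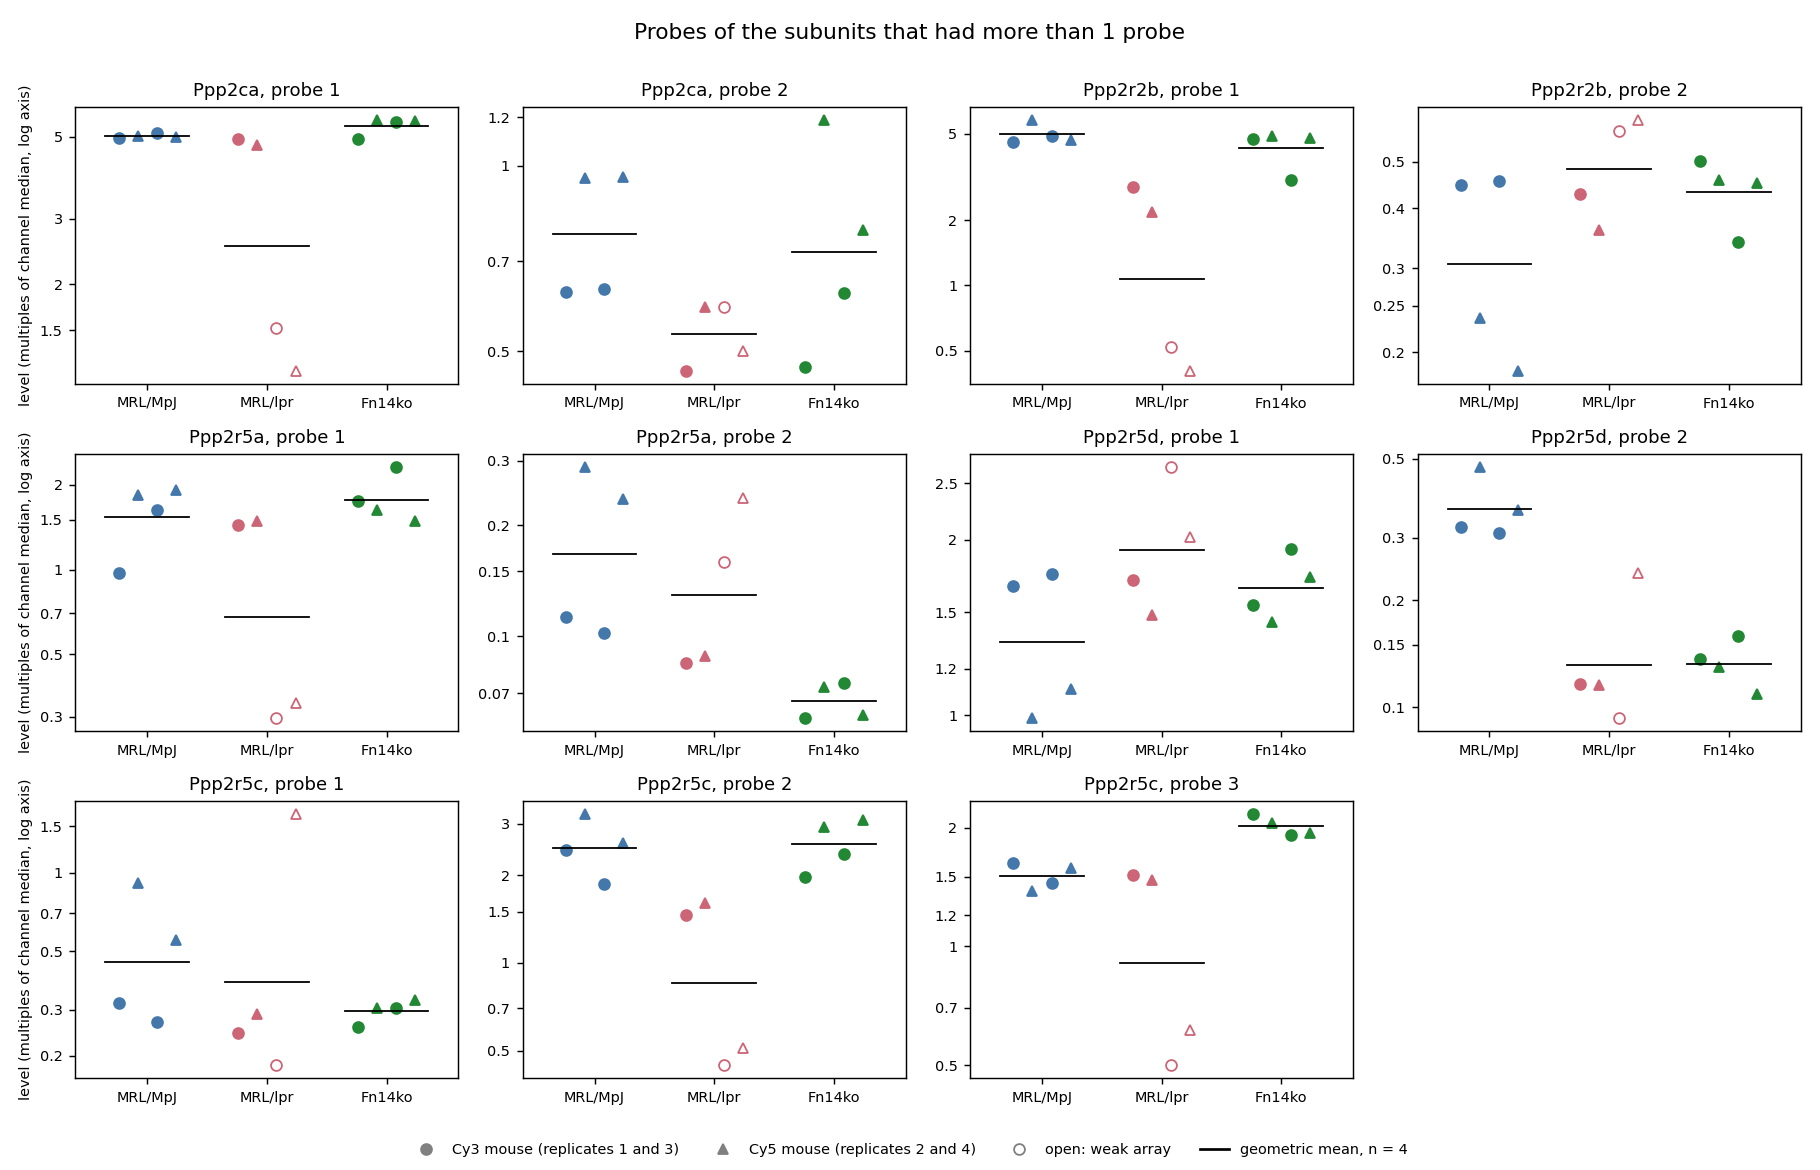
Levels of each probe of the 5 subunits with more than 1 probe, as multiples of the channel median on a log axis, by phenotype (symbols as for the levels). Probes of one gene differ: *Ppp2r2b* probe 1 is lowest in MRL/lpr while probe 2 is not, and *Ppp2r5d* probe 2 is highest in the controls (0.310 to 0.475) while probe 1 is not.

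The B56 subunits target PP2A to other substrates, among them regulators of Akt and of the cell cycle. *Ppp2r5c* had 3 probes valid in every mouse. As their mean it was 1.46, 1.85, 1.19 and 1.57 in MRL/MpJ, 1.47, 1.76, 1.53 and 1.79 in Fn14ko, and 1.07, 1.12, 0.376 and 0.933 in MRL/lpr. All 4 MRL/lpr mice were below the 8 others, also the 2 outside the weak array. The log2 fold change was −0.90 ± 0.29 against MRL/MpJ (SE, adjusted p = 0.0701) and −1.02 ± 0.29 against Fn14ko (adjusted p = 0.0673). Without the weak array *Ppp2r5c* was lower in MRL/lpr than in Fn14ko (log2 fold change −0.66 ± 0.15, 95% interval −1.002 to −0.32, adjusted p = 0.0254). This call was lost over the spots valid in all 12 mice (−0.57, adjusted p = 0.0696), under quantile normalization (−0.52, adjusted p = 0.0513) and with a replicate block (−0.68, adjusted p = 0.0994). The difference from MRL/MpJ did not pass (−0.29 ± 0.15, adjusted p = 0.215).

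The 3 probes of *Ppp2r5c*, spread over 21123 bases of genome, did not move alike. For MRL/lpr against Fn14ko the 10-mouse difference was −0.26 on probe 1, −0.83 on probe 2 (adjusted p = 0.0231) and −0.52 on probe 3 (adjusted p = 0.121). Probe 3, the one furthest downstream, was the only one that passed the test between Fn14ko and MRL/MpJ (0.67 ± 0.15, SE, adjusted p = 0.0130). Probe 2 was at 0.29 there (adjusted p = 0.182) and probe 1 at −0.36 (adjusted p = 0.183). The level of probe 3 was 2.17, 2.06, 1.91 and 1.94 in Fn14ko and 1.63, 1.39, 1.45 and 1.58 in MRL/MpJ, with no overlap. Probe 1 read 1.67 in MRL/lpr replicate 4, on the weak array, against 0.184 to 0.914 in the 11 other mice.

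*Ppp2r5d*, a B56 form of neurons, was read by 2 probes 1052 bases apart. Probe 1 was at 1.66, 0.987, 1.74 and 1.11 in MRL/MpJ, with the 2 Cy5 controls low, at 1.54, 1.44, 1.93 and 1.72 in Fn14ko and at 1.71, 1.49, 2.67 and 2.02 in MRL/lpr. Probe 2 was at 0.322, 0.475, 0.310 and 0.359 in MRL/MpJ, 0.137, 0.130, 0.159 and 0.109 in Fn14ko, and 0.116, 0.115, 0.0930 and 0.239 in MRL/lpr. On probe 2 every control, Cy3 and Cy5 alike, was above every other mouse, as for *Ppp2r1a*.

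Probe 2 was not valid in the weak array, so the 12-mouse value of *Ppp2r5d* rests on probe 1 (log2 fold change 0.53 ± 0.23, SE, for MRL/lpr against MRL/MpJ, adjusted p = 0.125). Probe 2 in the 10 mice was lower than in MRL/MpJ, with log2 fold changes of −1.48 ± 0.19 in MRL/lpr (adjusted p = 0.000693) and −1.195 ± 0.15 in Fn14ko (adjusted p = 0.00124). Probe 1 gave 0.42 and 0.56 for the same contrasts (adjusted p = 0.286 and 0.0838). The mean of both probes, dominated by the brighter probe 1, did not pass in any of the 3 comparisons.

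*Ppp2r5b* passed the test in none of 31 alternative settings nor in the 12 mice. It was at 3.70, 4.66, 4.02 and 5.45 in MRL/MpJ, 3.45, 3.57, 4.54 and 3.80 in Fn14ko, and 3.50, 3.67, 4.11 and 4.20 in MRL/lpr, and the 3 phenotypes overlapped. The 10-mouse interval of MRL/lpr against MRL/MpJ was −0.53 to 0.27, and that of Fn14ko against MRL/MpJ −0.28 to 0.36.

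*Ppp2r5a* was at 0.542, 1.06, 0.862 and 1.08 in MRL/MpJ, 0.903, 0.849, 1.197 and 0.772 in Fn14ko, and 0.762, 0.789, 0.228 and 0.287 in MRL/lpr, where only the weak array stood apart. Its log2 fold change was −0.94 ± 0.40 against MRL/MpJ (SE, adjusted p = 0.216) and −1.04 ± 0.40 against Fn14ko (adjusted p = 0.127). Without the weak array the values were 0.02 (95% interval −0.52 to 0.56) and −0.33 (−0.87 to 0.21). Its dim probe 2, well above background in 2 of the 4 controls, was lower in Fn14ko than in MRL/MpJ in the 10 mice (−1.08 ± 0.22, adjusted p = 0.00914), but the 2 Cy5 controls, at 0.289 and 0.236, were above the 2 Cy3 controls, at 0.113 and 0.102. These are the mice with raised negative-control signal, whose part in this difference was not tested.

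**Figure D4:**
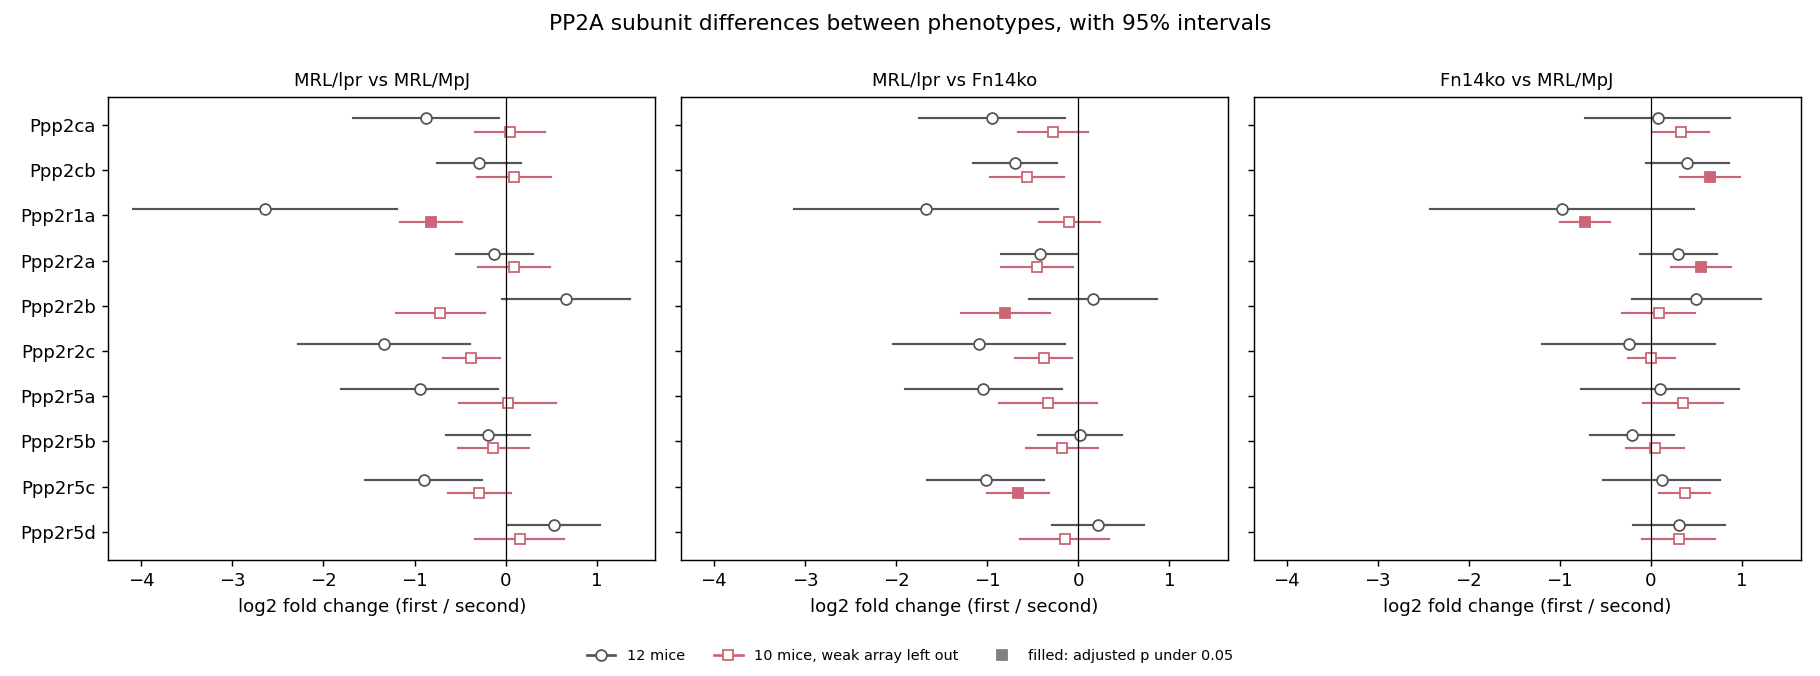
Log2 fold changes of the 10 subunits with 95% intervals, in the 3 comparisons, from all 12 mice (circles; 4 against 4) and from the 10 mice outside the weak array (squares). Filled symbols have an adjusted p under 0.05. No circle is filled; the filled squares are *Ppp2r1a* (−0.82 and −0.72), *Ppp2cb* (0.65), *Ppp2r2a* (0.55), *Ppp2r2b* (−0.80) and *Ppp2r5c* (−0.66).

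Counted together, no subunit was called in the 12 mice. Of the 8 subunits valid in all of them, 0 were called between MRL/lpr and MRL/MpJ, where 9.17% of the 8864 genes tested were. The counts were likewise 0 between MRL/lpr and Fn14ko (3.98% of genes) and 0 between Fn14ko and MRL/MpJ (0.519%). At an unadjusted p under 0.05 the limma fit had 4, 5 and 0 of the 8, beside 36.6%, 36.2% and 15.3% of genes. The 2 subunits read with no filter were not called either, where 2.46%, 6.83% and 0.145% of 29608 genes were. In that fit the median of all genes was itself 0.21, 1.34 and −0.97 in the same order. That median includes spots that were not valid. The channel scale was the same as for the 8 subunits, so the median is not a baseline for these 2. The methods' t-test on the levels gave 2, 3 and 2 of the 8 subunits at an unadjusted p under 0.05, beside 15.8%, 13.0% and 16.8% of genes, and 0 after adjustment.

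The number of subunits whose groups of 4 did not overlap was 3 of 8 between MRL/lpr and MRL/MpJ, all lower in MRL/lpr, where 16.1% of genes did not overlap. It was 5 of 8 between MRL/lpr and Fn14ko, all lower in MRL/lpr (21.5% of genes), and 1 of 8 between Fn14ko and MRL/MpJ (19.9%). The median log2 fold change of the 8 was −0.24, −0.56 and 0.21, beside −0.01, 0.03 and −0.16 over all genes tested.

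In the 10 mice all 10 subunits were valid. Between MRL/lpr and MRL/MpJ 1 was called, *Ppp2r1a* (15.7% of 17936 genes were called). Between MRL/lpr and Fn14ko 2 were, *Ppp2r2b* and *Ppp2r5c* (9.12%). Between Fn14ko and MRL/MpJ 3 were, *Ppp2cb*, *Ppp2r1a* and *Ppp2r2a* (21.1%). With the replicate number as a block, which treats same-numbered mice as pairs, *Ppp2r2a* was lost, and 1919 in place of 3785 genes were called. In the 12 mice the block left 0 of 46 genes there. With so few genes these counts are near the backgrounds, and they describe single subunits and not the complex. All 10 log2 fold changes of MRL/lpr against Fn14ko were below 0 (median −0.36, beside −0.04 over all genes). Of Fn14ko against MRL/MpJ, 9 of 10 were above 0 (0.31, beside −0.07). In the 12 mice 7 were below 0 in the first comparison and 7 above 0 in the second. The spots used for scaling alone moved the second by 0.25, as given for *Ppp2cb*. The share of all genes on either side of 0 was not counted. The 2 comparisons share the Fn14ko mice. With the array as a random block in the 12 mice, which counts 2 arrays rather than 4 mice per phenotype, 0 subunits were called and only 7, 4 and 0 genes in all. The MRL/lpr counts of the 12 mice rested on single mice. Without MRL/lpr replicate 1 the fit called 6 subunits against MRL/MpJ and 6 against Fn14ko, beside 3334 and 3553 of 8864 genes. Without replicate 2 it called 4 and 6, beside 3467 and 4298 genes. In both cases the weak array made up most of the remaining MRL/lpr group.

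Within phenotypes, with the weak array included, the subunits varied least in Fn14ko. The coefficient of variation there was 7.13% to 19.98% over the 10 subunits (median 11.3%). It was 3.25% (*Ppp2ca*) to 42.8% (*Ppp2r2b*, probe 2) in MRL/MpJ. The value of *Ppp2ca* in the controls depended on the spots used for scaling: on the scale of the 10-mouse fit it was 14.6%, and the lowest of the controls was then 7.90% (*Ppp2r5c*). In MRL/lpr it was 8.51% (*Ppp2r2a*) to 96.0% (*Ppp2r1a*), with a median of 32.6%. Without the weak array, on the scale of the 10-mouse fit, it was 0.603% (*Ppp2ca*) to 17.4% (*Ppp2r2b*) in the 2 remaining MRL/lpr mice. In Fn14ko it was then 6.39% (*Ppp2r2c*) to 21.2% (*Ppp2r5a*). The mean of *Ppp2r1a* was 3.65 in MRL/lpr replicates 1 and 2 and 0.365 in replicates 3 and 4.

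The genes whose pattern over the 12 mice was closest to *Ppp2ca*, by the root mean square difference of centred log2 levels, were *Gps1* (0.103), *Zmat2* (0.119) and *Nudt9* (0.125). Of the other subunits, *Ppp2r2c* came closest, at place 842 of 8863 genes, whereas *Ppp2cb* was at place 1563. In the 10 mice outside the weak array other genes were nearest: a probe with no gene name (0.0777), *Wdr17* (0.0812) and *Rasa3* (0.0863). There *Ppp2r2a* was at place 315 and *Ppp2cb* at place 395 of 17935, whereas *Ppp2r2c* was at place 4010. *Ppp2r1a* is given on the 10 mice, since its probe was not well above background in the other 2. It was nearest to *Xpo6* (0.0879), *Trp53rka* (0.0941) and a transcript known on the array only by an Ensembl identifier (0.115), and the closest subunit, *Ppp2r5b*, was at place 2404.

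The wider PP2A system was described by lists of other subunits, regulators, related phosphatases and the Akt pathway. Among the 13 regulators, *Ppme1*, the methylesterase that removes the methyl group from the tail of the catalytic subunit, was lowest in MRL/lpr. Its level was 3.40, 3.36, 3.88 and 4.19 in MRL/MpJ, 2.19, 2.37, 3.16 and 2.20 in Fn14ko, and 1.24, 1.62, 0.456 and 0.660 in MRL/lpr, with no overlap between any 2 phenotypes. The log2 fold change of MRL/lpr was −2.07 ± 0.36 against MRL/MpJ (SE, adjusted p = 0.00903) and −1.48 ± 0.36 against Fn14ko (adjusted p = 0.0450). Over the 10 mice it was −1.22 ± 0.23 (adjusted p = 0.00678) and −0.88 ± 0.23 (adjusted p = 0.0403). With the array as a random block in the 12 mice both calls were lost (adjusted p = 0.156 and 0.276). The call against MRL/MpJ was kept when any 1 mouse was left out, but that against Fn14ko was kept only without MRL/lpr replicate 1 or 2. Of 30 alternatives, the call against MRL/MpJ was kept in 25 and that against Fn14ko in 11. In the 10 mice the call against Fn14ko was lost with a replicate block (−0.73, adjusted p = 0.137).

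Of the 9 regulators valid in all 12 mice, 2 were called lower in MRL/lpr than in MRL/MpJ (*Ppme1* and the kinase *Mast3*, −1.03, adjusted p = 0.0400), 1 lower than in Fn14ko (*Ppme1*), and none between Fn14ko and MRL/MpJ (of all genes 9.17%, 3.98% and 0.519% were called, as above). The *Mast3* call was kept in 6 of 30 alternatives. Of the 13, 12 were valid in the 10 mice, where 15.7%, 9.12% and 21.1% of all genes were called. *Ppme1* and *Arpp19*, an inhibitor of PP2A with B55, were lower in MRL/lpr than in MRL/MpJ, and *Ppme1* and *Set*, another PP2A inhibitor, lower than in Fn14ko. *Igbp1*, which binds the catalytic subunit, was higher and *Mast3* lower in Fn14ko than in MRL/MpJ. *Arpp19* was −1.22 ± 0.27 (SE, adjusted p = 0.0146), whereas it was 0.97 ± 1.004 with the weak array included. *Set* in the 10 mice was −0.67 ± 0.17 (adjusted p = 0.0344) and *Igbp1* 0.71 ± 0.20 (adjusted p = 0.0351).

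Of 9 further PP2A subunits, 4 were valid in all 12 mice, and only *Ppp2r2d*, the remaining B55 form, was called, lower in MRL/lpr than in MRL/MpJ (−1.09 ± 0.30, SE, adjusted p = 0.0469, kept in 6 of 30 alternatives). In the 10 mice it was −0.37 and none of the 8 valid ones was called in any comparison. Of the 10 related phosphatase genes of the PP4 and PP6 families, 2 were valid in all 12 mice and neither was called. In the 10 mice, where all 10 were valid, 4 were lower in Fn14ko than in MRL/MpJ (*Ppp4c*, *Ppp4r2*, *Ppp4r3a* and *Ppp6r3*), where 1984 of all 17936 genes were lower, among them *Ppp4r3a* (−1.57 ± 0.26, adjusted p = 0.00436) and *Ppp6r3* (−0.86 ± 0.15, adjusted p = 0.00505). *Ppp4r4* was higher in MRL/lpr than in MRL/MpJ (0.88 ± 0.20, adjusted p = 0.0145).

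Akt kinases carry activating phosphates that PP2A removes. *Akt2* was lower in MRL/lpr than in MRL/MpJ (−1.30 ± 0.31, SE, adjusted p = 0.0293 in the 12 mice and −0.60 ± 0.18, adjusted p = 0.0437 in the 10). This direction is opposite to the study's. The call was kept in 16 of 31 alternatives and was lost without MRL/lpr replicate 3 or 4, Fn14ko replicate 2 or 4, or any 1 control. *Akt1* was higher in Fn14ko than in MRL/MpJ in the 10 mice (0.54 ± 0.16, adjusted p = 0.0413) but not in the 12 (0.29 ± 0.45). Of 15 genes of the Akt pathway valid in all 12 mice, 1 was called higher and 1 lower in MRL/lpr than in MRL/MpJ (*Mlst8*, 0.97, adjusted p = 0.0457, kept in 4 of 30 alternatives, and *Akt2*) and none in the other comparisons. All 17 were valid in the 10 mice, where 1 was higher and 4 lower in MRL/lpr than in MRL/MpJ, and 3 were higher and 1 lower in Fn14ko than in MRL/MpJ, beside 15.7% and 21.1% of all genes called in either direction.

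Other tissue markers also differed between phenotypes. The summed level of 7 choroid plexus genes was 7.82 to 37.6 in MRL/lpr, 0.517 to 5.41 in Fn14ko and 0.931 to 2.44 in MRL/MpJ. That of 8 striatal genes was highest in Fn14ko (9.0 to 24.9, against 3.69 to 5.08 and 5.10 to 8.74). That of 10 hippocampal genes was 10.02 to 12.7 in MRL/lpr, 5.82 to 8.69 in Fn14ko and 5.08 to 7.33 in MRL/MpJ. That of 4 blood genes was 14.1 to 148 in MRL/lpr, 22.9 to 75.6 in Fn14ko and 41.3 to 52.2 in MRL/MpJ. That of 6 microglial genes was 2.53 to 5.02 in MRL/lpr, 4.91 to 6.16 in Fn14ko and 6.06 to 8.39 in MRL/MpJ. The sums of 6 astrocyte genes (5.43 to 9.25 over the 12 mice) and 6 oligodendrocyte genes (12.9 to 30.2) overlapped between all 3 phenotypes. The part of tissue makeup in any difference between subunits was not tested.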

How the data were processed

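Hippocampal RNA of 12 mice was co-hybridised on 6 dual-colour Agilent arrays, 2 mice of one phenotype per array, and read by Agilent Feature Extraction 12.1.0.3, with mm9 coordinates, per the submitters' processing notes and the file headers. The intensity values deposited by the authors are scanner output. Following the study's methods, the background median was subtracted from the foreground mean, spots under 2 times background or with a feature outlier flag were dropped, signals were scaled to the median of their own channel, then averaged over the spots of a probe and the probes of a gene. Log2 levels were tested in R 4.3.3 with limma 3.58.1 (trend, dye as covariate, all 12 mice), with Benjamini-Hochberg adjustment and a threshold of 0.05. Without a filter, levels were floored at 1% of the median. Alternatives covered the background correction, normalization, spot filter, dye, array and replicate blocks, array weights, each mouse left out, and the weak array left out. Same-numbered mice, which share the dye, deviated together in all 4 pairs of Fn14ko and MRL/MpJ (correlations 0.20 to 0.50). They did not in all pairs of the comparisons with MRL/lpr. The labels name no pairs of mice, and the part of the shared dye was not tested. Single members were also tested by exact permutation (30 tests), which treats mice as independent although 2 shared each array. Named are the 10 members, list genes past the threshold, *Akt1* and *Akt2*, and the 3 nearest genes to *Ppp2ca* and *Ppp2r1a*. An item that the rule also names is not reported here. Members and lists were chosen with earlier results of these data known. The number of arrays limits the precision. The fits were tested on simulated data in which mice varied independently, so the effects of shared arrays and of a weak array were not covered.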

Additional observations from a re-analysis of the deposited data

Results flagged for a closer look

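In 2 of the 30 groups of 4 mice tested, 1 mouse lay far from the other 3, where chance alone gives about 1 in 20. *Ppp2r2a* in MRL/lpr replicate 1 was at 2.28, with the nearest of the other MRL/lpr mice at 1.96, and this gap was 0.846 of the group's range. *Ppp2r5c* in MRL/lpr replicate 3 was at 0.376, with the nearest at 0.933 (0.832 of the range), and this mouse was on the weak array.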

How the results depend on the processing

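The directions of *Ppp2r1a* against MRL/MpJ, *Ppp2cb* between Fn14ko and MRL/MpJ and *Ppp2r5c* in MRL/lpr were kept in all alternatives run. Of 1111 values recomputed, 857 kept direction and side of the threshold, 67 passed only in the alternative, 113 passed only in the main setting and 74 turned. The cause was not tested. The weak array limits what the MRL/lpr group can show, and slide cannot be told apart from phenotype. The estimate of array weights stopped before it converged, so values with array weights are approximate.

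Counts follow in the order MRL/lpr against MRL/MpJ, MRL/lpr against Fn14ko and Fn14ko against MRL/MpJ. The main setting called 813, 353 and 46 genes and 0 subunits. Subunits called were 1, 1 and 0 with normexp, with no filter and with spots well above background, 2, 0 and 0 with Agilent's processed signal, 1, 0 and 0 without dye or with each probe alone, 2, 2 and 3 with array weights, and 0, 0 and 1 with only the 2 phenotypes compared. Without the weak array they were 1, 0 and 2 on the same spots and 1, 2 and 3 on spots valid in 10. Genes called were 956, 458 and 64 with normexp, 1202, 647 and 52 with Agilent's signal and 728, 2022 and 43 with no filter. Quantile normalization gave 396, 136 and 0, and spots well above background gave 504, 207 and 90. The array as a random block gave 7, 4 and 0, and Cy3 or Cy5 mice alone gave 0 in all 3. Without dye 748, 346 and 19 genes were called, and with each probe alone 954, 363 and 76 probes. Without the weak array the genes were 1608, 640 and 2494 on the same spots and 2818, 1636 and 3785 on spots valid in 10. Array weights gave 1450, 901 and 3414, and only the 2 phenotypes compared gave 37, 18 and 2308. The methods' t-test gave 1403, 1155 and 1493 genes and 3, 3 and 3 of the 10 subunits unadjusted, and 0, 0 and 8 genes after adjustment.

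Same-numbered mice deviated together in every pair of Fn14ko and MRL/MpJ. They did not in every pair of MRL/lpr and MRL/MpJ (correlations −0.40 to 0.44) or of MRL/lpr and Fn14ko (−0.10 to 0.29). These mice also share the dye, so the correlations cannot show whether the numbers pair mice. With a replicate block, 505, 179 and 0 genes and 1, 0 and 0 subunits were called. The last 3 settings, on the 10 mice, were chosen after seeing the data. The array block, whose estimated correlation within arrays was −0.26 against 0.71 in the 12 mice, gave 5135, 2847 and 6412 genes and 3, 3 and 4 subunits, quantile normalization 4188, 1765 and 3800 genes and 2, 0 and 2 subunits, and the replicate block 1262, 618 and 1919 genes and 1, 0 and 2 subunits. Leaving out 1 mouse at a time gave 126 to 3467, 40 to 4298 and 0 to 126 genes, and 0 to 6, 0 to 6 and 0 to 0 subunits.

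Log2 fold changes that turned are given by comparison. For MRL/lpr against MRL/MpJ, *Ppp2r2b* was −0.019 with Agilent's signal and −1.60 with no filter or spots well above background, *Ppp2r5b* 0.16 with quantile normalization and 0.032 with spots well above background, and *Ppp2r2a* 0.096 with the latter. On the 10 mice, also with the array block, *Ppp2ca* was 0.047, *Ppp2cb* 0.089, *Ppp2r2a* 0.094, *Ppp2r2b* −0.72 and *Ppp2r5a* 0.021. With quantile normalization *Ppp2cb* was 0.018, *Ppp2r2a* 0.028 and *Ppp2r2b* −0.78, and with the replicate block these were 0.11, 0.093 and −0.79, *Ppp2ca* 0.095, *Ppp2r5a* 0.18 and *Ppp2r5b* 0.0032. For MRL/lpr against Fn14ko, *Ppp2r5b* was −0.16 with normexp, −0.035 with Agilent's signal, −0.060 in Cy3 mice and −0.040 to 0.13 without 1 mouse. *Ppp2r2b* was −0.52 with Agilent's signal, −0.26 with quantile normalization, −1.43 with no filter or spots well above background, −0.42 with array weights and −0.037 to 0.30 without 1 mouse, and *Ppp2r5d* was −0.16 with array weights. On the 10 mice and the same spots *Ppp2r2b* was −0.14, *Ppp2r5b* −0.090 and *Ppp2r5d* −0.051. On spots valid in 10, also with the array block, they were −0.80, −0.18 and −0.15, with quantile normalization −0.63, −0.0095 and −0.052 (*Ppp2r1a* 0.067), and with the replicate block −0.87, −0.040 and −0.042. For Fn14ko against MRL/MpJ, *Ppp2r5c* was −0.12 with Agilent's signal, and *Ppp2r2b* was −0.17 with no filter or spots well above background, −0.13 in Cy3 mice and −0.14 with quantile normalization on the 10 mice. *Ppp2r2c* was 0.085 and *Ppp2r5b* 0.037 in Cy3 mice, and 0.0054 and 0.043 on the 10 mice, also with either block. *Ppp2r5a* was −0.40 in Cy5 mice, −0.12 with array weights and −0.12 to 0.22 without 1 mouse.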
